A study of Oryza sativa with 3 samples.

Results

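The short arm of rice chromosome 4 was taken as positions 1 to 9200000 of that chromosome (TIGR release 5), from its end up to the core of the centromere. It held 86442 nucleosome calls, 2.50% of the 3456855 calls in the genome, and 549718 single-end reads, 2.07% of 26516807. The long arm, from position 10200000 to 35244266, held 231355 calls and 1844639 reads and served as the comparison. All data came from the cultivar Nipponbare, from leaf tissue of 2-week-old seedlings, whose nuclei were digested with MNase so that mono-nucleosomal DNA could be excised from a gel and sequenced. The single-end reads are 1 biological replicate, sequenced as 2 technical replicates that the authors pooled into a single list. The calls come from an independent paired-end library, also 1 biological replicate. With 1 library in each form there was no replicate error, and no test between the arms was made. Errors below are counting errors or the range over windows of 1 Mb, and windows of the same library are not replicates.

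A nucleosome is DNA wrapped around an octamer of histones, joined to the next by linker DNA, and MNase cuts the linker. The 5' end of a single-end read therefore marks an edge of a nucleosome, and the distances between ends show how regularly nucleosomes follow each other. Heterochromatin is chromatin that stays condensed, is poor in active genes and rich in transposons and other repeats. In rice the short arms of chromosomes 4 and 10 are known from cytology as largely heterochromatic. No histone mark, DNA methylation or transcript was measured in these libraries, so heterochromatic is here a name from outside the data. Repeats matter for the measurement too, since only reads with a unique position in the genome were kept.

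Fewer unique reads fell on the short arm than on the long arm. The short arm held 59.8 reads per kb (95% exact Poisson interval 59.6 to 59.9), the long arm 73.7, and the other 11 chromosomes 71.5. The ratio of the short to the long arm was 0.811. It was 0.936 against the long arm up to 18 Mb, which held 63.9 reads per kb, and 0.765 against the long arm from 18 Mb. That limit was set after the data were seen. The share of 200-bp bins that held at least 1 read, called the covered share below, was 82.8% in the short arm (exact binomial interval 82.5% to 83.2%) and 90.3% in the long arm. The covered share stands in for the sequence in which a read can be placed uniquely, since no genome of this release was used here. Per kb of covered bins, 72.2 reads fell on the short arm and 81.6 on the long arm, a ratio of 0.885. Nucleosome occupancy and the share of placeable sequence cannot be told apart in such densities.

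Read density changed along the short arm in a broad wave. From the end of the chromosome towards the centromere, the 9 full windows of 1 Mb held 71.3, 63.9, 52.1, 48.8, 60.8, 70.4, 63.3, 55.9 and 59.3 reads per kb. The first window was the richest, the fourth the poorest, and a second high point lay between 5 and 6 Mb. The covered share was 91.4% in the first window, the highest of the arm, and 75.6% in the fourth, the lowest. It was below the long-arm median of 92.1% in all 9 windows and in 53.7% of all windows of the genome. All 9 windows lay below the long-arm median of 76.9 reads per kb, beside 74% of all 365 full windows in the genome, so the count alone does not set the arm apart. In the other 11 chromosomes 1.21% of 331 windows had fewer reads than the fourth window and 44.1% had fewer than the first. Covered share and read density followed each other over the windows, with r = 0.956 in the short arm (n = 9), r = 0.914 in the long arm (n = 25) and r = 0.853 elsewhere (n = 331). Both measures come from the same reads, so these correlations are a description only. The poorest window of the whole genome, with 34.1 reads per kb, lay not in the short arm but in the long arm, from 14.2 to 15.2 Mb.

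**Figure D1:**
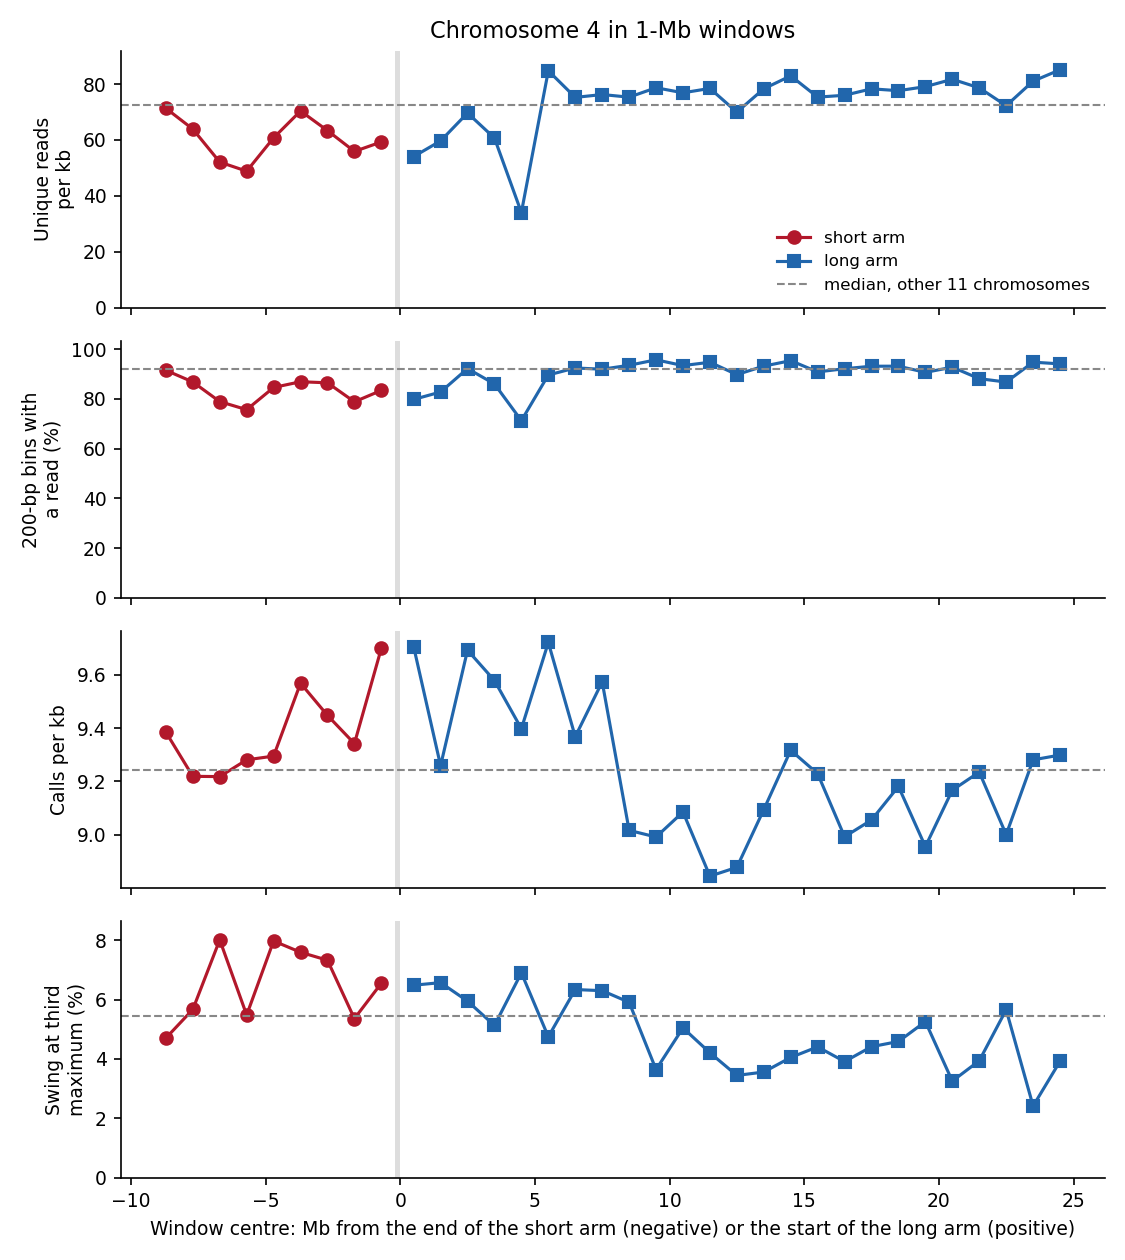
Unique reads per kb, covered share (percent of 200-bp bins with a read), nucleosome calls per kb and swing at the third maximum of the distances (percent, explained in the text) in full 1-Mb windows of chromosome 4, against the distance from the stretch between the arms in Mb. Red circles are the 9 windows of the short arm, blue squares the 25 of the long arm, dashed lines the median of 331 windows of the other 11 chromosomes, and the grey band the last 0.2 Mb of the short arm; the axis of calls per kb does not start at 0. The first 8 windows of the long arm have a median swing of 6.32%, near the 6.55% of the short arm, and a median of 9.58 calls per kb, above the 9.34 of the short arm.

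The loss of reads was patchy rather than even. Of 920 bins of 10 kb in the short arm, 90 (9.78%) had a covered share under 50%, while in 511 (55.5%) it was at least 90%. In the long arm 115 of 2504 bins (4.59%) were under 50% and 75.2% reached 90%. Stretches of at least 1000 bp without any read numbered 475 in the short arm, 51.6 per Mb, and made up 9.34% of it. In the long arm there were 647, or 25.8 per Mb, which made up 4.45%. The longest in the short arm spanned 11466 bp, from 5368303 to 5379768 on chromosome 4. Yet 104 nucleosomes had been called inside it, with a median score of 0.539. The next longest, 3317827 to 3325413 (7587 bp) and 7586960 to 7594022 (7063 bp), held 64 and 63 calls. In 10-kb bins in which at least 90% of 200-bp bins held a read, the short arm had 79.6 reads per kb. The long arm had 85.7 in such bins, a ratio of 0.929. The bins were chosen by the same reads that are counted, which favours closer densities, so this ratio is a description only.

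A few bins stood out in the other direction. The 10-kb bin from 930001 to 940000 held 2026 reads, 3.30 times the short-arm median of 614, and 27.9% of its reads shared both position and strand with an earlier one. The bin from 910001 to 920000 held 1890 reads, of which 23.5% were such repeats. Over the whole short arm this share was 14.8%. The calls in these bins had median scores of 0.657 and 0.669, above the 0.488 of the arm. The next bin, 7950001 to 7960000, held 1386 reads, 18.2% of them repeats, and its calls had a median score of 0.459.

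Between the arms, the density of nucleosome calls did not follow that of reads. The short arm held 9.40 calls per kb (exact Poisson interval 9.33 to 9.46) and the long arm 9.24 (9.20 to 9.28), a ratio of 1.02. The windows of the short arm had 9.39, 9.22, 9.22, 9.28, 9.30, 9.57, 9.45, 9.34 and 9.70 calls per kb in order. The lowest value was that of the window from 2 to 3 Mb and the highest that of the window from 8 to 9 Mb. In 7 of 9 windows the density was above the long-arm median of 9.23, as in 54.8% of all windows. Calls were also made where the single-end library had no read. In the short arm 12095 calls (14.0%) were centred in 200-bp bins without a read, at 7.65 calls per kb, against 9.76 in bins with reads. In the long arm 7.69% of calls lay in such bins, at 7.31 and 9.44 calls per kb. The read pairs of the paired-end library were not analysed here, so how many pairs lie behind each of these calls was not tested.

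Calls in the short arm were crowded. The centre of the next call was close enough for the calls to overlap in 78.2% of cases, against 76.5% in the long arm. In the 9 windows this share ran from 77.2% to 79.6%, above the long-arm median of 76.1% in all 9 and above it in 58.1% of all windows. Distances over 250 bp between adjacent calls were fewer, 3.48% against 4.02%, and all 9 windows were below the long-arm median of 4.07%, as were 55.6% of all windows. Stretches of at least 1000 bp without a call were nonetheless more frequent in the short arm, at 19.0 per Mb (175 stretches, 2.53% of the arm) against 13.1 per Mb (329 stretches, 1.75%). The longest of these, 6053662 to 6056159 (2498 bp), held 15 reads. Those from 1094656 to 1097092 (2437 bp) and from 3998899 to 4001217 (2319 bp) held 9 and 7 reads.

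Single-end reads gathered at the calls made from the other library. On average 3.52 ± 3.99 reads (SD over calls) had their centre, taken 73 bp inside the 5' end, within 20 bp of the centre of a short-arm call. This was 1.44 times the number at a random position of the arm, and the ratio was 1.46 in the long arm. Random positions include bins without reads, in which calls were less dense. In 10-kb bins with a covered share of at least 90% the ratio was 1.39 in the short arm and 1.44 in the long arm. Among the full windows the ratio was lowest, 1.39, between 8 and 9 Mb, and highest in the read-poor window between 3 and 4 Mb, 1.48. It was below the long-arm median of 1.47 in 7 of 9 windows, as in 66.8% of all windows. Windows with more calls per kb had fewer reads at each call relative to a random position, with r = -0.920 in the short arm, -0.968 in the long arm and -0.950 elsewhere. The number of calls is also the divisor of this ratio, so these correlations are a description only.

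Calls with a high deposited score had more reads on average than calls with a low one. The highest-scoring 10% of short-arm calls had 7.35 reads each and the lowest-scoring 10% had 1.68, beside 2.45 at a random position of the arm. In the long arm these values were 9.57 and 1.92, beside 3.02. Calls with no read within 20 bp of their centre made up 28.3% in the short arm and 18.5% in the long arm. In the short arm they made up 22.0% of the highest-scoring 10% and 35.1% of the lowest-scoring 10%. In the long arm these shares were 9.79% and 27.3%. Over single calls the rank correlation of score and reads was 0.298 in the short arm and 0.453 in the long arm, at different read densities. The median score itself was 0.488 in the short arm, 0.493 in the long arm and 0.467 in the other 11 chromosomes. Windows of the short arm lay between 0.477 and 0.493, and 8 of 9 were below the long-arm median of 0.493, as were 87.7% of all windows.

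The distance from a nucleosome to its neighbour was nearly the same in both arms. Distances between 5' ends on the same strand had their first maximum at 182 bp in the short arm, 181 bp in the long arm and 182 bp in the other 11 chromosomes. Single windows of the short arm gave 180 to 189 bp, with the lowest value between 3 and 4 Mb and the highest between 5 and 6 Mb, and windows of the long arm gave 177 to 195 bp. In 6 of 9 windows it was above the long-arm median of 184 bp, as in 55.1% of all windows. The median distance between adjacent calls, over distances of 120 to 250 bp, was 158 bp in the short and 159 bp in the long arm. Most adjacent calls, 78.2% and 76.5%, overlap at 120 bp or less, so this median covers a minority of distances within fixed limits. The median was 156 to 160 bp over short-arm windows, of which 4 were below the long-arm median of 159 bp, as were 25.8% of all windows. The protected length, the most frequent distance from a forward to a reverse end, was 148 bp in the short arm and 147 bp in the long arm. It lay between 147 bp (7 to 8 Mb) and 154 bp (2 to 3 Mb) in the windows, of which 5 were above the long-arm median of 148 bp, as were 35.1% of all windows. These differences of 1 bp were smaller than the spread over windows, and the sign of each changed under some of the alternatives tried. Spacing from reads moved most, to 9 bp longer in the short arm with reverse reads alone (188 against 179 bp), to -3 bp with forward reads alone (182 against 185 bp) and 5 bp longer by the slope through the first 3 maxima. A cosine fitted to all distances from 150 to 900 bp, which was added after the data were seen, had its best period at 194 bp in the short arm and 196.5 bp in the long arm. In 8 of 9 windows that period was below the long-arm median of 196 bp, as in 59.7% of all windows.

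The wave of regular spacing differed between the arms beyond its first maximum. The distances were divided by their moving mean over 190 bp, and the fall from each maximum to the minimum after it, in percent of that mean, is called the swing. At the first maximum the swing was 14.7% in the short arm and 14.2% in the long arm, and 5 of 9 windows were above the long-arm median of 13.8%, as were 61.6% of all windows. At the second it was 9.43% and 7.86%, at the third 6.47% and 4.09%, and at the fourth 3.96% and 2.81%. The maxima of the short arm stood at 182, 373, 571 and 757 bp. The swing at the third maximum had a counting error of 0.28 percentage points in the short arm (SE, with pairs of reads taken as independent) and 0.14 in the long arm. The ratio of the arms rose from 1.04 at the first to 1.20 at the second and 1.58 at the third maximum, and was 1.41 at the fourth. At the fourth maximum the order depended on the part compared, since the long arm up to 18 Mb had 4.59% and the first 7 Mb of chromosome 10 had 4.38%, both above the short arm. The third maximum was chosen for further description after these values were seen. Forward reads alone gave 6.81% and 4.27% there, and reverse reads alone 6.88% and 4.15%.

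**Figure D2:**
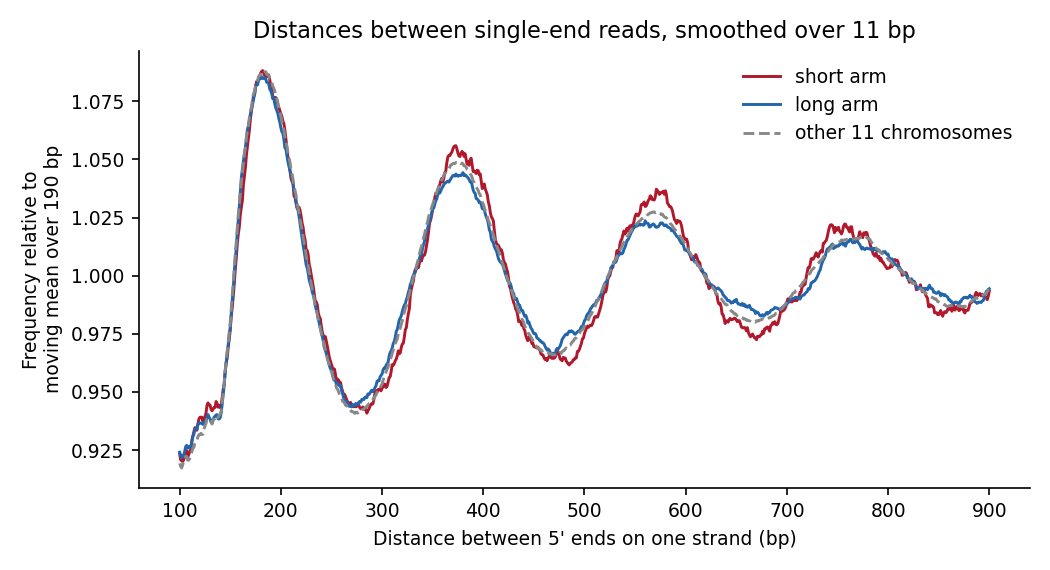
Frequency of distances from 100 to 900 bp between 5' ends on the same strand, smoothed over 11 bp and divided by the moving mean over 190 bp, for the short arm (red), the long arm (blue) and the other 11 chromosomes (dashed grey). The curves nearly coincide at the first maximum, near 182 bp, and the short arm has the deepest waves of these curves at the second maximum and at the one after it.

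The swing at the third maximum differed widely between windows of the short arm. In order from the end of the chromosome the swing at the third maximum was 4.70%, 5.67%, 8.01%, 5.48%, 7.97%, 7.59%, 7.32%, 5.36% and 6.55%. It was lowest in the first window, the one with the most reads, and highest between 2 and 3 Mb. All 9 windows were above the long-arm median of 4.59%, and 4 were above the whole long-arm range of 2.42% to 6.90%. Above that median were also 75.3% of all windows, and the median of the other 11 chromosomes was 5.43%. Taken in order, the short-arm windows exceeded 27.8%, 57.4%, 98.2%, 51.4%, 97.9%, 94.9%, 92.7%, 46.8% and 81.3% of the windows of those chromosomes. In the second maximum too all 9 windows were above the long-arm median, as were 76.4% of all windows. The values also moved with depth. With every window reduced to 34000 reads the medians were 7.19% in the short arm, 5.74% in the long arm and 6.13% elsewhere. Then 8 of 9 short-arm windows were above the long-arm median, beside 63.3% of all windows, and the ratio of medians was 1.25.

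**Figure D3:**
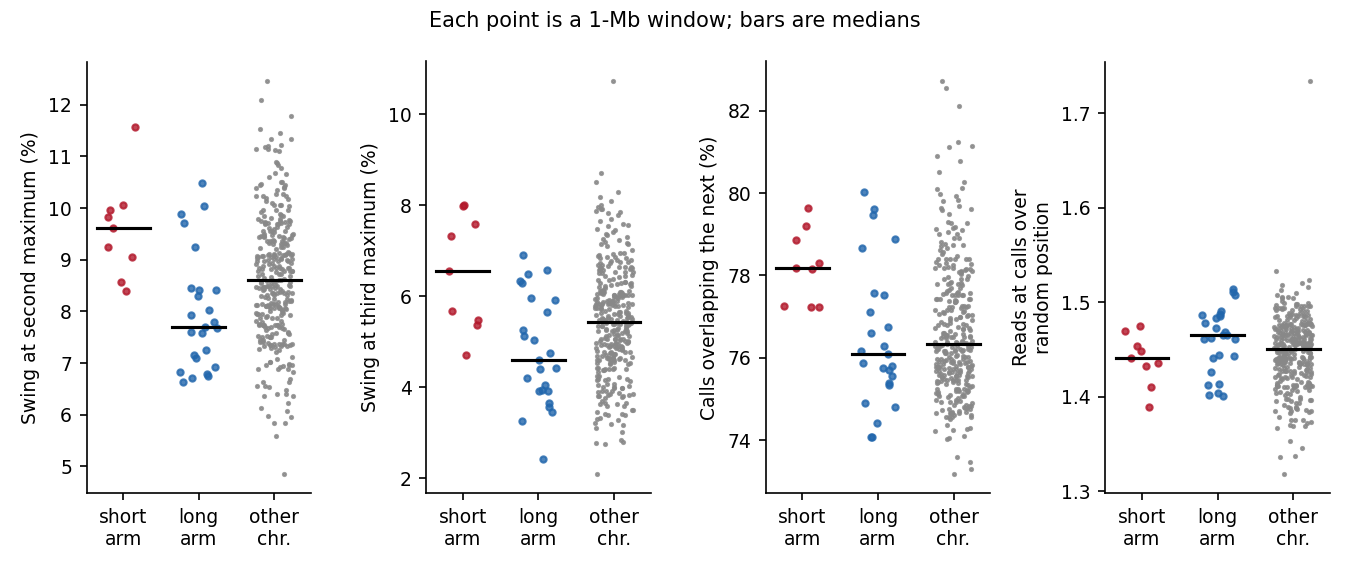
Swing at the second maximum and at the third maximum (percent), share of calls that overlap the next call (percent) and reads at calls relative to a random position, each point a full 1-Mb window, for the short arm (9, red), the long arm (25, blue) and the other 11 chromosomes (331, grey), with black bars at the medians; the axes do not start at 0. At the third maximum the short-arm median is 6.55% and the long-arm median 4.59%, and the points of the other chromosomes span both arms.

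The long arm was itself uneven in these measures. The first 8 windows of the long arm, 10.2 to 18.2 Mb, were set apart from its other 17 windows after their values were seen. Their median swing at the third maximum was 6.32%, beside 6.55% in the short arm and 4.05% in the other 17. Their calls per kb had a median of 9.58, against 9.34 in the short arm and 9.09 further out. The share of calls that overlap the next was 78.8%, 78.2% and 75.7% in the same order. The median read density was 65.2 reads per kb in these 8 windows, 60.8 in the short arm and 78.3 further out. The covered share had medians of 87.8%, 84.5% and 93.1% in the same order. In stretches as long as the short arm, the swing at the third maximum was 5.17% ± 0.25 (counting SE) from 10.2 to 19.4 Mb, 4.10% ± 0.23 from 19.4 to 28.6 Mb and 3.79% ± 0.23 over the last 9.2 Mb. The short arm, at 6.47% ± 0.28, was above each of them. The first 7 Mb of chromosome 10 had a swing of 6.34% at the third maximum and 9.37 calls per kb, both near the values of the short arm. Its 65.2 reads per kb and its covered share of 87.8% lay between those of the arms. The stretch between the arms of chromosome 4 had a swing of 9.16%, 55.4 reads and 10.1 calls per kb, and 81.9% of calls overlapping the next. Its swing rests on 55368 reads, against 549718 in the short arm, and was not compared at equal depth. Forward reads alone gave 10.5% there and reverse reads alone 10.6%.

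Windows within the same range of covered shares gave a smaller contrast in swing. Covered shares of 75.6% to 91.4%, the range of the short arm, were found in 9 windows of the long arm and in 152 of the other 11 chromosomes. Within this range the windows still differed in covered share, with medians of 84.5% in the short arm, 88.1% in these long-arm windows and 88.1% in the other windows. The median swing at the third maximum was 6.55% in the short arm, 5.13% in these long-arm windows and 5.70% in the other windows, of which the middle 90% spanned 3.92% to 7.88%. The median read density was 60.8, 72.2 and 66.6 reads per kb in the same order, and the median call density 9.34, 9.24 and 9.30 calls per kb. Across the windows of the short arm, covered share and swing at the third maximum were hardly related (r = -0.060, n = 9), while r was -0.609 in the long arm (n = 25).

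Regularity read from the calls gave the opposite order between the whole arms. Calls in runs of at least 4, with every distance between centres 150 to 230 bp, made up 1.80% of calls in the short arm (exact binomial interval 1.71% to 1.89%) and 2.15% in the long arm (2.09% to 2.21%), a ratio of 0.839. The long arm up to 18 Mb had 1.75% of calls in runs, close to the short arm, and the long arm from 18 Mb had 2.33%. By window of the short arm the share ran from 1.48% between 7 and 8 Mb to 2.45% between 1 and 2 Mb. In 7 of 9 windows it was below the long-arm median of 2.21%, as in 54% of all windows. Calls that overlap the next are too close for such a run, and the part of their greater share in the short arm (78.2% against 76.5%) in this order was not tested. In an alternative, calls below the genome's median score were removed and runs were sought anew among the calls left. Of these, 10.8% in the short arm and 10.4% in the long arm were in runs. Such runs can pass over a removed call, so these shares are not parts of the 1.80% and 2.15%. Long runs were about equally frequent in both arms. Runs of at least 4 calls numbered 36.7 per Mb in the short and 44.4 per Mb in the long arm, runs of at least 6 numbered 4.67 and 4.83, and runs of at least 8 numbered 0.978 and 0.799.

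The longest run of the short arm was made of 11 calls from 6066406 to 6068224, at a mean distance of 169.8 ± 9.19 bp (SD). The distances from each call to the next were 160, 172, 184, 181, 170, 157, 162, 166, 179 and 167 bp. The calls scored from 0.574 to 0.847, above the median of the arm, but only the sixth had a single-end read within 20 bp of its centre, and it had 1. The run therefore rests on the paired-end library. The longest run of the long arm, 14 calls from 11805472 to 11807773 with a mean distance of 167.8 bp, had 91 reads. Of the 338 runs of at least 4 calls in the short arm, 171 (50.6%) had a read at every call, against 746 of 1112 (67.1%) in the long arm. The arms also differ in reads per kb (59.8 against 73.7) and in calls without a read (28.3% against 18.5%). The part of read depth in these shares was not tested. The longest run with a read at every call in the short arm, sought after the first had been seen, held 10 calls from 3569425 to 3571209. Its distances were 185, 162, 172, 207, 197, 214, 163, 162 and 202 bp. Its calls had 8, 1, 2, 1, 2, 21, 16, 12, 8 and 5 reads, so the sixth to eighth were the best covered. In the long arm the longest run with a read at every call held 8 calls.

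The last 0.2 Mb of the short arm, next to the stretch between the arms, were unlike the rest. They held 19.6 reads per kb and a covered share of 46.0%, but 9.93 calls per kb with a median score of 0.673. Bins without reads made up 54.0% of this stretch and held 1023 calls (51.5%), at 9.47 calls per kb against 10.5 in bins with reads. Calls in bins without reads had the higher median score, 0.689 against 0.613. The change could be placed in blocks of 20 kb. The last 6 blocks, which were singled out after their values were seen, spanned 9080001 to 9200000 and held 44 to 159 reads each, 523 in all. They held 191 to 203 calls each, with median scores of 0.650 to 0.703. The block just before them, 9060001 to 9080000, already had a median score of 0.670, with 484 reads. The 450 blocks before 9 Mb had a median of 1252.5 reads (82 to 3257) and median scores of 0.409 to 0.656. Only 1 of those 450 blocks reached the lowest score of the last 6, and 6 had as few reads as the richest of them. Reads and scores come from different libraries here, and whether the high scores come from read pairs with a unique position was not tested. Distances between reads in this stretch rest on 3920 reads and are not given.

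**Figure D4:**
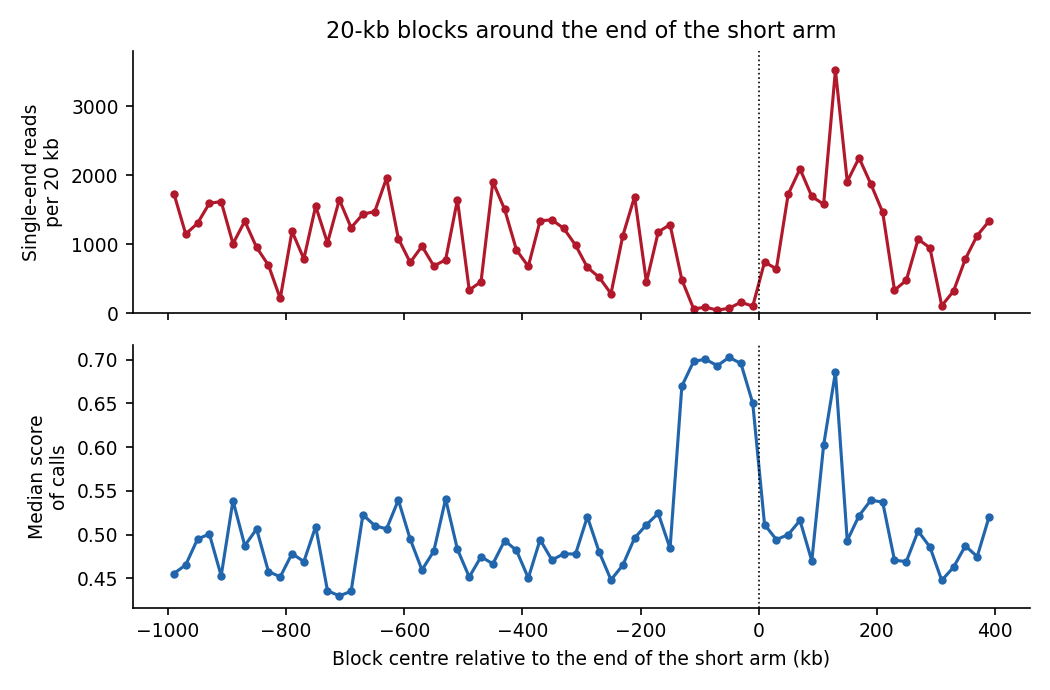
Single-end reads per 20-kb block (top) and median nucleR score of the calls in it (bottom, axis not from 0) against the distance of the block centre from the end of the short arm in kb, with the arm to the left of the dotted line. The last 6 blocks of the arm hold 44 to 159 reads and have median scores of 0.650 to 0.703.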

How the data were processed

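Reads of 36 bp were mapped by the authors with MAQ (1 mismatch allowed) to TIGR release 5, and those at unique positions were kept. They deposited these positions for the single-end library, pooled over 2 technical replicates. From the paired-end library they removed fragments over 200 bp, shortened the rest to their central 40 bp and called nucleosomes with nucleR. The deposited score of a call is the value the authors obtained from nucleR, and its scale and threshold are not given in the sources used here. The other deposited list of calls held the same values and was left out. Depth was 59.8 reads per kb in the short arm, so single calls carry few reads. In single windows the swing at the third maximum moved with depth.

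The 5' ends of reads were analysed with Python 3.11.15, numpy 2.4.6, scipy 1.17.1 and numba 0.67.0. Distances up to 1000 bp were smoothed over 11 bp in arms and 31 bp in windows, and the first maximum was sought between 150 and 250 bp. Each minimum was sought 50 to 140 bp after its maximum. Protected length was the most frequent length between 80 and 300 bp, without smoothing. Intervals are 95% and, like the counting errors, cover only counting error, because each form has 1 library. They take reads as independent. PCR copies of a molecule cannot be recognised without identifiers, so the intervals may be too narrow. The measures were tested on simulated nucleosome arrays.

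The arm limits, measures and named regions were chosen with earlier results of these data known. Named were the extreme windows, the 3 longest stretches without reads or calls, the 3 bins of 10 kb with the most reads and the longest run of calls. Genes and sequences were not used here, since the gene table at hand is of another assembly. Alternatives were tried for depth, repeated reads, strand, smoothing, covered share, arm limits and call scores.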

Additional observations from a re-analysis of the deposited data

How the results depend on the processing

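Of 68 alternatives fixed for 10 results, 54 moved the value by less than its spread over the 9 short-arm windows. Of the 27 added after seeing the data, 25 did so. For spacing from reads and protected length this spread, 2.54 and 2.12 bp, exceeds the difference of 1 bp. A value can therefore change sign and still be within it. Values on the other side of no difference numbered 8 of the 68 and 1 of the 27. In one alternative only 10-kb bins with a covered share of at least 90% were used. The ratio of short to long arm became 1.04 for call density and 0.929 for read density. The covered share then differed by -0.459 percentage points, as the choice of bins makes it. That choice was made by the same reads, so it bears on read density too. In these bins the median score differed by -0.0130, and the spacing of calls by 1 bp in place of -1 bp. Spacing from reads, 1 bp longer in the short arm, became -3 bp with forward reads, 9 bp with reverse reads, 5 bp by the slope through 3 maxima and -2.5 bp by the best cosine (added). Spacing of calls became -3 bp over distances of 100 to 300 bp, 1 bp for the top 50% of calls by score and 1.5 bp for calls that overlap no other. Those 50% of calls gave ratios of 1.03 for the share in runs and 0.963 for reads at calls. Against the other 11 chromosomes the median score was higher by 0.0212. The protected length turned to -1 bp with the long arm thinned and with the flanks of the centromere left out, within the spread of windows. The ratio of swings at the third maximum, 1.58, ranged from 1.25, with each window at 34000 reads, to 1.66. The causes of these changes were not tested. No paired analysis was possible because each form of library has 1 biological replicate and no replicate number is shared. Leaving out a replicate was not possible for the same reason, and the technical replicates carry no mark in the pooled list.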

Other observations

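The 10-kb bins of both arms overlapped widely in read number, with the middle 90% of bins at 93.8 to 1076 reads in the short arm and 158 to 1166 in the long arm. The covered share was lowest in the genome on chromosome 1, from 15 to 16 Mb, at 58.9%, and the swing at the third maximum was highest on chromosome 6, from 14 to 15 Mb, at 10.7%. None of the 9 full windows of the short arm was the highest or lowest of the 365 in covered share, read density, call density or this swing. The median score differed between chromosomes, from 0.448 on chromosome 9 to 0.496 on chromosome 5, with 0.492 on chromosome 4.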
